A study of Mus musculus with 12 samples.

Results

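The genes described here limit or are induced by Wnt signalling: the Dickkopf genes Dkk1, Dkk2 and Dkk3, the membrane proteins Apcdd1 and Znrf3, the intracellular scaffold Axin2, and the Wnt-binding proteins Sfrp1, Sfrp2, Frzb and Wif1. They were taken by name, as all probe sets annotated to these 10 genes, which gave 24 probe sets of the 34958 that the array annotation ties to a single gene, and 10 of 18194 genes. The study asked which genes act downstream of the homeodomain transcription factor Dlx5 in the early mouse inner ear. RNA of 12 samples in 6 groups was hybridised to Affymetrix mouse arrays, 1 array per sample and 2 per group. Otic vesicles, the epithelial sacs that form the inner ear, came from embryos labelled Dlx5 null or wild type at E10.5 and at E10, staged by somites. Each vesicle sample pooled 4 to 8 vesicles that were treated with dispase to remove mesenchyme. How completely it was removed is not given, and the labels give neither the Dlx5 allele nor the strain. The other 4 samples were independent cultures of 2B1, a conditionally immortal cell line of otic vesicle origin, transiently transfected with a vector carrying Dlx5 and GFP or with the GFP vector without Dlx5. All 2B1 cultures were grown at 32 °C with gamma-interferon and then held at 37 °C without it for 4 days after transfection. The 2B1 line is a single line, and how many cells took up a vector is not given in the sources used here.

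Wnt ligands bind a Frizzled receptor together with an LRP co-receptor, and the signal stabilises beta-catenin, which then activates target genes with TCF/LEF factors. Secreted Frizzled-related proteins and Wif1 bind Wnt ligands outside the cell, while Dkk1 and Dkk2 bind the LRP co-receptors. Several genes that oppose the signal, among them Axin2, Znrf3, Apcdd1 and Dkk1, are themselves induced by it, which gives negative feedback. In the otic vesicle, Wnt signals from the dorsal hindbrain act on the dorsal wall, where Dlx5 is expressed.

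The upstream sequences of Dkk1 and Dkk2, the Dickkopf genes with the largest differences between labelled-null and wild-type vesicles, are shown because the study looked for genes controlled by a homeodomain factor. Both are from RefSeq on GRCm38.p6 and run 5′ to 3′ to the last base before the annotated gene. Dkk1 lies on the minus strand (chr19:30549497-30549746) and Dkk2 on the plus strand (chr3:132085042-132085265). Capitals mark CTTTG on either strand (CAAAG on the other) and TATAAA.
Dkk1: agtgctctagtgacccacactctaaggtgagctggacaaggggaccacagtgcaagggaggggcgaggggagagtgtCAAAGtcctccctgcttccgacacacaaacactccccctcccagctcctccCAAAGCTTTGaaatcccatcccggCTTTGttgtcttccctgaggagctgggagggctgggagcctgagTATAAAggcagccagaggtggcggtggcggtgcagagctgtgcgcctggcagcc
Dkk2: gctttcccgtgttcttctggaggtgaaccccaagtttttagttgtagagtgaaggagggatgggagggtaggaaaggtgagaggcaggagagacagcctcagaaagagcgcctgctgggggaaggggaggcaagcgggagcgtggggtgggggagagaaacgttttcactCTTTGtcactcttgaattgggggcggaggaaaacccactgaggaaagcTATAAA
Motifs were searched on both strands in windows of 250 bases before to 50 after the start site, which were at hand for 6 of the 10 genes. The homeodomain core TAATT occurred in 27.0% of all 32851 such windows and in 0 of the 6, and the TCF/LEF motif CTTTGAT occurred in 3.7% of all windows and in 0 of the 6. The shorter core CTTTG, which CTTTGAT contains, was in 53.9% of all windows and in 4 of the 6, with 4 matches in Dkk1 and 1 each in Dkk2, Frzb and Wif1. TATAAA was in 13.6% of all windows and in 3 of the 6, those of Dkk1, Dkk2 and Wif1. CTTTG and TATAAA were added after values and sequences had been seen, and a match is only a description of these letters.

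The Dlx5 probe set went against the genotype labels. Its log2 level was 7.97 and 7.97 in labelled-null and 6.12 and 6.11 in wild-type vesicles at E10.5, and 7.27 and 8.02 in labelled-null and 6.20 and 6.30 in wild-type vesicles at E10. It was higher in the labelled-null arrays over both stages (1.63, SE 0.18, limma adjusted p = 0.0475). Whether the probe set lies outside the deleted part is not given in the sources used here, so every direction below is that of arrays labelled null against arrays labelled wild type. Otic epithelium markers had mean log2 levels of 8.76 to 8.94 in labelled-null and 9.0 to 9.06 in wild-type arrays at E10.5, and of 8.67 and 9.0 in labelled-null and 8.68 and 9.09 in wild-type arrays at E10, with all 8 measured genes of the list above the dim limit, the mean level under which the lowest 25% of genes lay. By gene, 5 of these 8 had higher and 3 lower values in labelled-null arrays over both stages (median 0.11). All 12 periotic mesenchyme markers were above the dim limit in vesicles, and 10 had lower values in labelled-null arrays over both stages. Their mean levels were 6.87 and 6.71 in labelled-null and 7.10 and 6.95 in wild-type arrays at E10.5. At E10 these were 6.26 and 6.53 in labelled-null and 6.34 and 6.85 in wild-type arrays. All 6 tested otic neuroblast markers had higher values in labelled-null arrays over both stages and at E10. At E10.5 alone 3 were higher and 2 lower. Mean levels of the list were 6.96 and 6.79 in labelled-null and 6.65 and 6.58 in wild-type arrays at E10.5. At E10 the means were 6.77 and 6.41 in labelled-null and 6.16 and 6.15 in wild-type arrays. Of the 6 tested endothelium markers, 5 had lower values in labelled-null arrays over both stages. Blood markers averaged 9.76 and 9.75 in labelled-null and 8.84 and 8.81 in wild-type arrays at E10.5, against 7.48 to 8.11 in the 4 arrays of E10. The pools also differed in sex: Xist was at 4.98 in labelled-null and 5.07 in wild-type replicate 1 of E10, against 8.91 to 9.72 on the other 6 vesicle arrays. The Y-linked Eif2s3y was at 4.82 and 5.04 in labelled-null and 3.21 and 3.45 in wild-type arrays at E10.5. The part of tissue makeup and sex in the results below was not tested except where a fit with the Eif2s3y level is named. In these bulk samples, fewer cells of a type cannot be told apart from less RNA per cell.

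In labelled-null vesicles, read on the brightest probe set of each gene, Dkk1 fell over both stages. Within each stage, Dkk2, Apcdd1 and Znrf3 had lower values on both labelled-null arrays than on either wild-type array. On the same sets, Axin2, the Frizzled-related genes and Dkk3 had overlapping values at 1 stage or both. Of the 10 genes, 9 passed the filter on dim genes and were tested, and Wif1 did not pass it. At an adjusted p under 0.05, 1 of the 9 was called and it was lower, where 0.022% of all 13645 genes tested were called. The 4 genes that were lower without overlap within each stage compare with 3.24% of all genes, and their 4 unadjusted p-values under 0.05 compare with 2.84% of all genes that were lower at that level. The median difference of the 9 was -0.50 (log2), beside -0.01 for all genes. The 10 genes were chosen with earlier results of these data known. These shares and the median, and the shares given below, thus describe the list and do not test it.

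**Figure D1:**
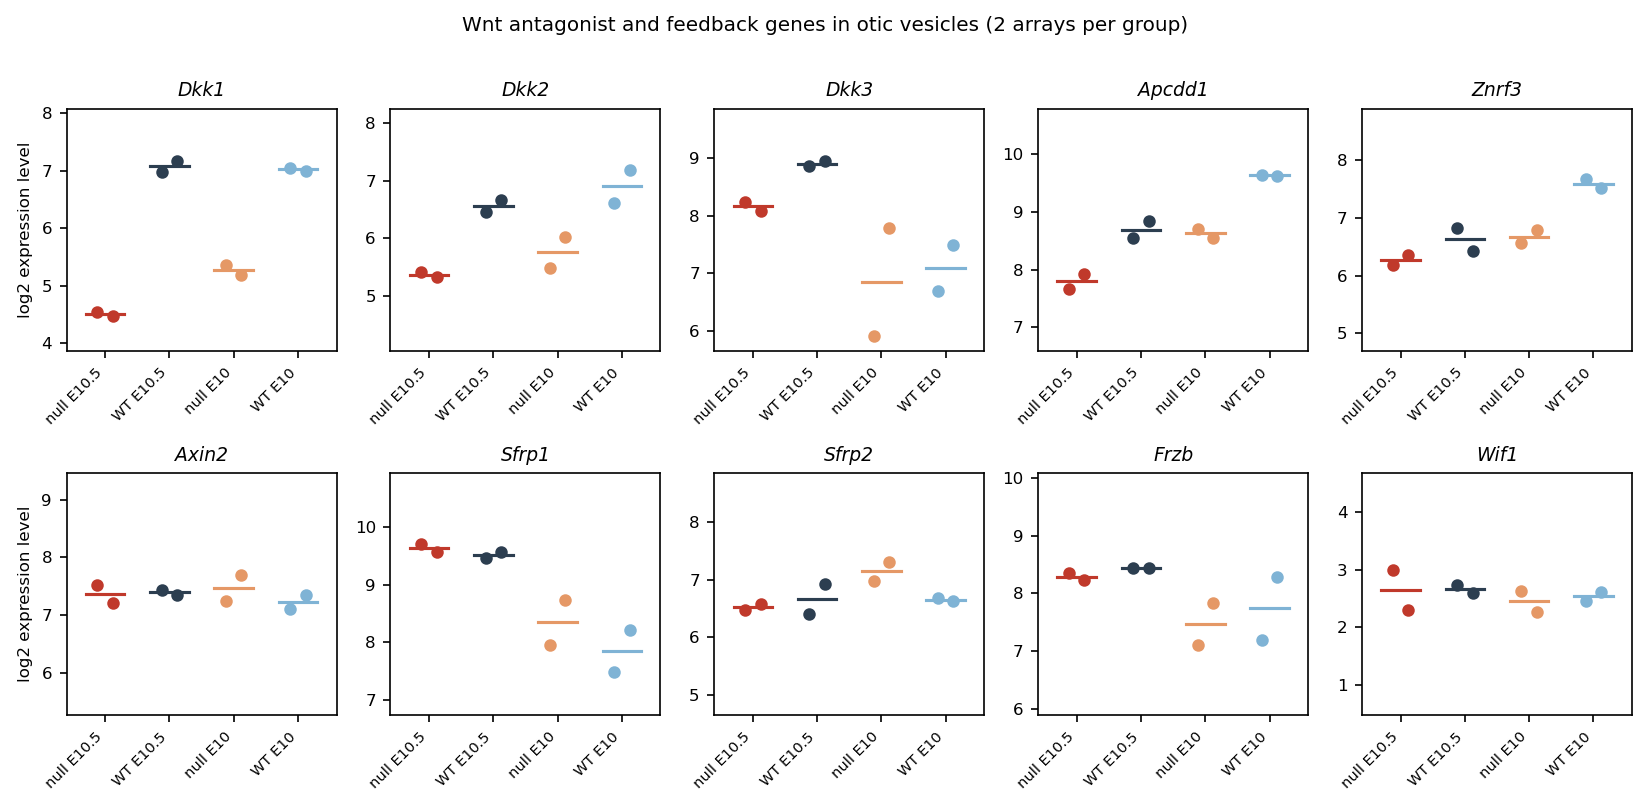
Log2 expression level of each of the 10 genes (1 probe set per gene) on the 8 otic vesicle arrays, by group along the horizontal axis. Points are single arrays of pooled vesicles and lines are group means of 2 arrays. Within each stage both labelled-null arrays lie below both wild-type arrays for Dkk1, Dkk2, Apcdd1 and Znrf3, and Wif1 stays between 2.27 and 3.0.

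Dkk1, which binds LRP co-receptors and blocks canonical Wnt signalling, showed the largest difference of the 10 genes. Its brighter probe set (1458232_at; gene at chr19:30545876-30549496) read 4.55 and 4.48 in labelled-null and 6.98 and 7.17 in wild-type vesicles at E10.5. At E10 it read 5.36 and 5.19 in labelled-null and 7.05 and 6.99 in wild-type vesicles. The wild-type values lay within a narrow band at both stages, and the labelled-null values lay below them and were lowest at E10.5. At E10.5 both labelled-null values were under the dim limit of 5.19, so Dkk1 passed the filter through its wild-type level, and the folds below are differences of RMA values, which are compressed at dim levels. Over both stages Dkk1 was lower by 4.45-fold (log2 difference -2.15, SE 0.17, 95% interval -2.55 to -1.76, limma adjusted p = 0.00636), the second smallest p-value of all genes. At E10.5 alone it was lower by 5.90-fold (-2.56, SE 0.15, adjusted p = 0.00641), the single gene called in that comparison (0.00733% of those tested). At E10 it was lower by 3.35-fold (-1.75, SE 0.15), ranked first of all genes and did not pass the threshold (adjusted p = 0.0759), as no gene did there (0% called, with 451 at an unadjusted p under 0.05). The second Dkk1 probe set (1420360_at) read 4.90 and 4.80 in labelled-null and 6.63 and 6.50 in wild-type vesicles at E10.5, and 4.92 and 4.12 in labelled-null and 6.14 and 6.68 in wild-type vesicles at E10. All labelled-null values of this second set were under 5.19, so its mean level also rested on the wild-type arrays. The set differed by -1.80 over both stages, which passed when probe sets were tested singly (limma adjusted p = 0.0438). The call over both stages was lost without labelled-null replicate 1 of E10.5 (adjusted p = 0.0556), without wild-type replicate 1 of E10.5 (adjusted p = 0.0641) and with the Eif2s3y level in the fit (-2.11, adjusted p = 0.0544). The call at E10.5 was lost when any 1 of its 4 arrays was left out, at adjusted p-values between 0.161 and 0.254.

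Dkk2 binds the same co-receptors and acts as an antagonist or a weak agonist depending on context. Its probe set (1420512_at; gene at chr3:132085266-132180304) read 5.41 and 5.33 in labelled-null and 6.45 and 6.66 in wild-type vesicles at E10.5. At E10 the values were 5.49 and 6.02 in labelled-null and 6.62 and 7.19 in wild-type vesicles. The groups did not overlap at either stage. The difference over both stages was -1.17 (SE 0.17, 95% interval -1.55 to -0.79, limma adjusted p = 0.0982, 11th smallest p of all genes) and did not pass. It was close in size at both stages, -1.19 at E10.5 and -1.15 at E10. Leaving out 1 array at a time moved the difference over both stages between -1.285 and -1.057, and it passed in none of these fits. Without both replicate 1 arrays of E10, which leaves 1 array in each E10 group, it was -1.18.

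Dkk3 is a divergent member of the family that is not known as an LRP-binding Wnt inhibitor. Its brighter probe set (1417312_at, chromosome 7) read 8.24 and 8.09 in labelled-null and 8.86 and 8.95 in wild-type vesicles at E10.5. At E10 it read 5.92 and 7.78 in labelled-null and 6.70 and 7.50 in wild-type vesicles. The spread within the E10 groups was larger than the difference between genotypes (-0.50 over both stages, SE 0.37, limma adjusted p = 0.999). The second probe set, 1448669_at, differed by -0.12 over both stages, by -0.44 at E10.5 and by 0.195 at E10.

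Apcdd1, a membrane glycoprotein that inhibits Wnt signalling at the cell surface, had the fourth smallest p-value of all genes over both stages. Its brightest probe set (1449070_x_at; gene at chr18:62922327-62953815) read 7.67 and 7.93 in labelled-null and 8.55 and 8.84 in wild-type vesicles at E10.5. At E10 it read 8.71 and 8.55 in labelled-null and 9.64 and 9.63 in wild-type vesicles. Labelled-null values at E10 were thus at the level of wild-type values at E10.5. The difference over both stages was -0.95 (SE 0.12, 95% interval -1.22 to -0.68, unadjusted p = 2.68e-05) and missed the threshold (limma adjusted p = 0.0656). It was -0.90 at E10.5 and -1.01 at E10. Of its 6 probe sets, 1449070_x_at, 1454822_x_at, 1418382_at and 1418383_at differed by -0.65 to -0.99 over both stages, 1437604_x_at by -0.15, and the dim 1443639_at was not tested. Probe sets ending in _x_at hold probes that can also match other transcripts.

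Znrf3 is a transmembrane ubiquitin ligase that removes Frizzled receptors from the cell surface. Its brighter probe set (1435608_at; gene at chr11:5276329-5444847) read 6.19 and 6.36 in labelled-null and 6.83 and 6.43 in wild-type vesicles at E10.5. At E10 it read 6.56 and 6.79 in labelled-null and 7.67 and 7.52 in wild-type vesicles. The gap was wider at E10 (-0.92, SE 0.19) than at E10.5 (-0.36, SE 0.19), and the difference over both stages was -0.64 (SE 0.16, limma adjusted p = 0.532). The second probe set, 1437646_at, differed by 0.03 over both stages, with opposite signs at the stages. At E10 it was higher in labelled-null vesicles (0.285), with 5.95 and 5.92 against 5.55 and 5.75 in wild-type vesicles. At E10.5 it was lower (-0.235). The lower Znrf3 values at E10 thus hold for 1435608_at only.

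Axin2, a scaffold of the beta-catenin destruction complex and a widely used readout of canonical Wnt activity, did not follow these genes. Its probe set 1436845_at (gene at chr11:108917828-108950783) read 7.52 and 7.21 in labelled-null and 7.44 and 7.35 in wild-type vesicles at E10.5. At E10 it read 7.24 and 7.70 in labelled-null and 7.10 and 7.34 in wild-type vesicles. The groups overlapped at both stages, and the 95% interval of the difference over both stages (0.11) ran from -0.22 to 0.44, which leaves out a change of the size seen for Dkk1, Dkk2 or Apcdd1.

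The Frizzled-related genes had no call between genotypes. Sfrp1 (1428136_at, chromosome 8) was bright at E10.5, with 9.70 and 9.56 in labelled-null and 9.47 and 9.56 in wild-type vesicles. At E10 it read 7.96 and 8.73 in labelled-null and 7.49 and 8.21 in wild-type vesicles. Its difference over both stages was 0.31 (95% interval -0.18 to 0.79). The Sfrp1 set 1438620_x_at was higher without overlap within each stage (0.255, limma adjusted p = 0.999), beside 1.79% of all probe sets. The sets 1416594_at, 1448395_at and 1460187_at differed by 0.10, 0.54 and 0.13 over both stages and overlapped. Sfrp2 (1448201_at, chromosome 3) differed by 0.18 over both stages and was higher without overlap only at E10, with 6.98 and 7.31 in labelled-null and 6.68 and 6.63 in wild-type vesicles (0.49, SE 0.21, limma adjusted p = 1). Frzb, also known as Sfrp3 (1416658_at, chromosome 2), read 8.35 and 8.23 in labelled-null and 8.45 and 8.45 in wild-type vesicles at E10.5, and differed by -0.22 over both stages (SE 0.24). Wif1 (1425425_a_at, chromosome 10), which binds Wnt ligands through its own domain, was at 2.27 to 3.0 on all vesicle arrays, below the dim limit of 5.19, and was not tested.

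**Figure D2:**
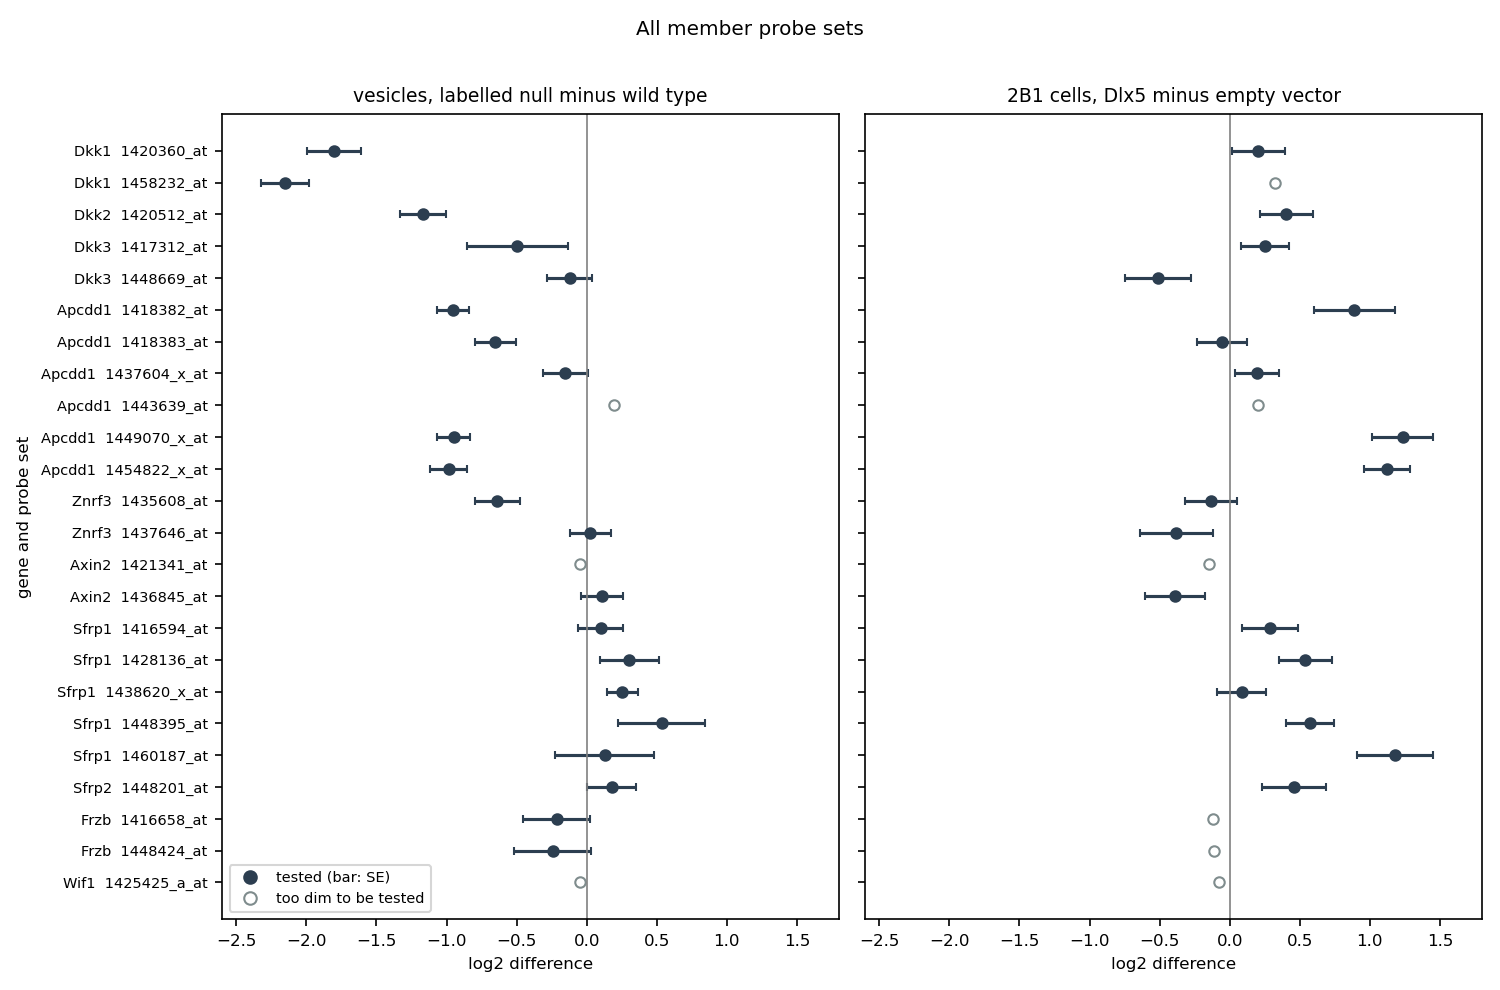
Log2 difference for every probe set of the 10 genes. Labelled-null minus wild-type vesicles over both stages are on the left, and Dlx5-transfected minus empty-vector 2B1 cells on the right. Filled points were tested and carry SE bars, and open points were too dim to be tested. On the left the Dkk1 probe sets lie at -1.80 and -2.15 and those of Axin2 at -0.05 and 0.11. There 4 of the Apcdd1 probe sets lie between -0.65 and -0.99.

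Counted over probe sets, 21 of the 24 were tested, 13 had lower and 8 higher values in labelled-null vesicles over both stages, and 2 were called lower, both of Dkk1 (0.0153% of all 26218 probe sets were called). At E10.5, 6 of the 9 genes were lower without overlap, beside 28.2% of all genes. At E10, 4 of 9 were lower without overlap, beside 8.93% of all genes. These comparisons and those of stage share arrays.

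Whether the genotype difference itself changed with stage was asked with an interaction term. None of the 9 genes passed (0% of all genes were called by limma, with 269, or 1.97%, at an unadjusted p under 0.05). Dkk1 had the lowest p-value of the 9, with -0.82 for the genotype difference at E10.5 minus that at E10 (SE 0.22, unadjusted p = 0.00643, adjusted p = 1). Its second probe set moved the other way (0.18). Dkk2 (-0.04) and Apcdd1 (0.11) had interaction values well under their genotype differences, and that of Znrf3 was 0.57 (SE 0.27, unadjusted p = 0.0732).

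With age, wild-type vesicles at E10.5 had higher Sfrp1 and lower Apcdd1 than at E10. These were the 2 calls among the 9 genes, beside 2.17% of all genes called (1.17% higher and 0.997% lower). Sfrp1 was higher at E10.5 by 3.17-fold (1.67, SE 0.31, limma adjusted p = 0.0494), and Apcdd1 was lower by 1.92-fold (-0.94, SE 0.17, adjusted p = 0.0494). Dkk3 (1.81, SE 0.55, adjusted p = 0.13) and Znrf3 (-0.97, SE 0.19, adjusted p = 0.0534) did not pass. Dkk1 (0.06, 95% interval -0.30 to 0.41) and Sfrp2 (0.01) had overlapping values at the 2 stages. Both calls were lost without wild-type replicate 1 of E10, without any 1 of the 4 arrays of E10.5 and with the Eif2s3y level in the fit (adjusted p = 0.199 for Apcdd1 and 0.219 for Sfrp1), and that of Apcdd1 also without wild-type replicate 2 of E10, the highest adjusted p-values without 1 array being 0.426 for Apcdd1 and 0.394 for Sfrp1. Without both replicate 1 arrays of E10, each E10 group has 1 array, assumed to vary like the other groups, and 5 genes were called, Apcdd1, Dkk2, Dkk3, Sfrp1 and Znrf3.

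The Sfrp1 probe sets were not alike in this. The sets 1428136_at and 1460187_at were higher at E10.5 by 1.67 and 2.14 in wild-type vesicles, while 1416594_at and 1438620_x_at differed by 0.12 and 0.16. For Dkk3 the second set, 1448669_at, differed by 0.555 in wild-type and -0.08 in labelled-null vesicles. In labelled-null vesicles no member was called (0.022% of genes were, and 15.3% had an unadjusted p under 0.05). The labelled-null stage differences were 1.29 for Sfrp1, -0.83 for Apcdd1, -0.76 for Dkk1 and -0.62 for Sfrp2, with limma adjusted p-values of 0.14, 0.112, 0.108 and 0.248. Blood markers, above, were also higher at E10.5, and their part in these stage differences was not tested.

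**Figure D3:**
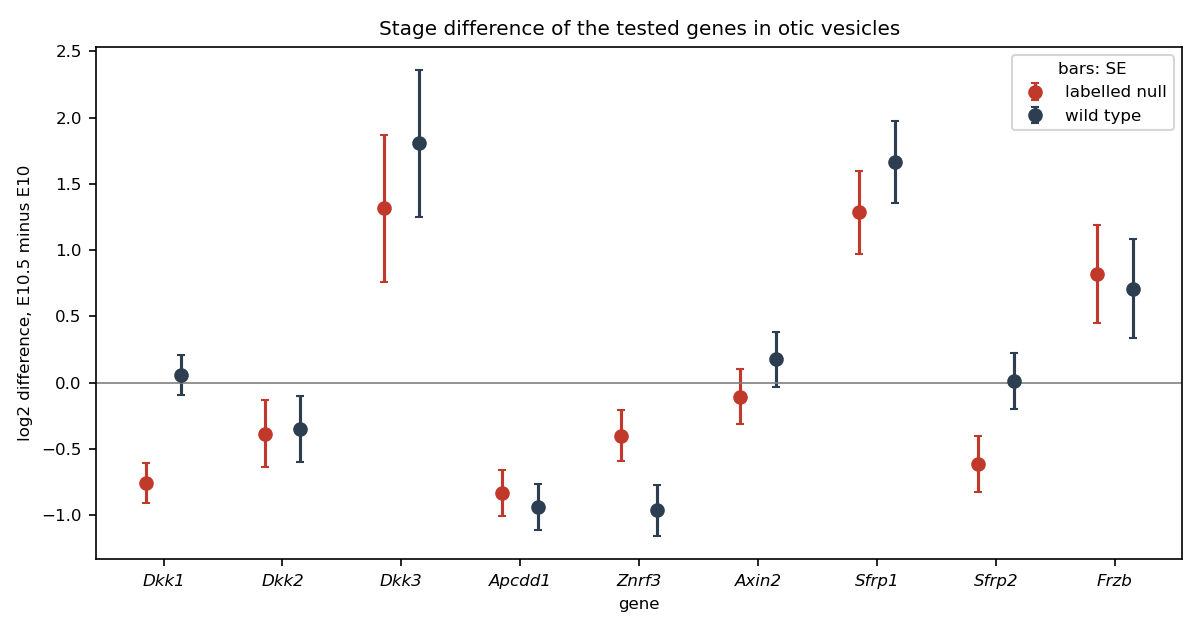
Log2 difference, E10.5 minus E10, of the 9 tested genes, for labelled-null (red) and wild-type (dark) vesicles, with bars of 1 SE from the fit. Dkk3, Sfrp1 and Frzb lie above 0 and Apcdd1 and Znrf3 below 0 in both genotypes, and Dkk1 is at -0.76 in labelled-null and 0.06 in wild-type vesicles.

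Across the 4 vesicle groups, the levels of Dkk1 on 1458232_at ran, high to low, in the order wild type E10.5, wild type E10, labelled null E10 and labelled null E10.5, and of these neighbours the wild-type groups overlapped. On 1420360_at the labelled-null groups had the other order and overlapped too. Dkk2 had wild type E10 and E10.5 on top, which overlapped, then labelled null E10 and labelled null E10.5. Apcdd1 was highest in wild type E10 and lowest in labelled null E10.5, with wild type E10.5 and labelled null E10 between them and overlapping. Znrf3 had the same order of extremes as Apcdd1. Sfrp1 had both E10.5 groups above both E10 groups.

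The 2B1 cells were used to ask which genes respond to added Dlx5. In Dlx5-transfected cells Apcdd1 and Sfrp1 had higher values, and neither passed the threshold. No gene did in this comparison of 2 against 2 cultures (0% called by limma, with 1760 of 13647 genes, or 12.9%, at an unadjusted p under 0.05). Dlx5 itself read 5.14 and 4.80 in Dlx5-transfected and 4.66 and 4.79 in empty-vector cells (0.25, SE 0.18), so the probe set gave no call that the cells differed in Dlx5. The groups did not overlap, beside 29.6% of all genes that were higher without overlap. The mean level of this probe set in 2B1 cells, 4.85, lay at the dim limit, where RMA compresses differences. Frzb (3.49 and 3.58 in Dlx5-transfected and 3.68 and 3.63 in empty-vector cells) and Wif1 (2.35 to 2.50 on all 4 arrays) were below the dim limit of 4.85, and 8 of the 10 genes were tested.

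Apcdd1 had the sixth smallest p-value of all genes in 2B1 cells. Its brightest probe set there (1454822_x_at) read 7.52 and 7.47 in Dlx5-transfected and 6.28 and 6.46 in empty-vector cells, higher by 2.18-fold (1.13, SE 0.16, 95% interval 0.75 to 1.5, unadjusted p = 0.000142, limma adjusted p = 0.324). The probe sets 1449070_x_at (7.24 and 6.95 in Dlx5-transfected and 5.61 and 6.11 in empty-vector cells) and 1418382_at (5.93 and 5.22 in Dlx5-transfected and 4.39 and 4.98 in empty-vector cells) were also higher without overlap. The probe sets 1418383_at (-0.06) and 1437604_x_at (0.20) differed little, the second without overlap. The 3 sets with the larger differences are among the 4 that were lower in labelled-null vesicles.

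Sfrp1 (1448395_at) read 8.91 and 8.95 in Dlx5-transfected and 8.23 and 8.48 in empty-vector cells (0.58, SE 0.17, unadjusted p = 0.00956, limma adjusted p = 0.377). Apcdd1 and Sfrp1 were the 2 genes of 8 higher at an unadjusted p under 0.05, a level at which 9.71% of all genes were higher. Dkk2 read 6.70 and 6.48 in Dlx5-transfected and 6.02 and 6.35 in empty-vector cells (0.41, SE 0.19, adjusted p = 0.392). Sfrp2 read 8.05 and 8.02 in Dlx5-transfected and 7.26 and 7.89 in empty-vector cells (0.46). Those 4 genes were higher without overlap, beside 29.6% of all genes.

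Axin2 read 6.85 and 6.54 in Dlx5-transfected and 7.31 and 6.86 in empty-vector cells (-0.39, SE 0.21, limma adjusted p = 0.432). Dkk3 (1448669_at) read 5.19 and 5.69 in Dlx5-transfected and 6.17 and 5.73 in empty-vector cells (-0.51). These 2 were lower without overlap, beside 19.1% of all genes. The other Dkk3 probe set, 1417312_at, went the opposite way, with 5.03 and 5.08 in Dlx5-transfected and 4.93 and 4.67 in empty-vector cells (0.26). Dkk1 overlapped, at 5.16 and 4.93 in Dlx5-transfected and 4.68 and 5.0 in empty-vector cells (0.21, 95% interval -0.22 to 0.63, probe set 1420360_at), as did Znrf3 (-0.14). The otic epithelium list had 6 of 8 measured genes above the dim limit in 2B1 cells, with mean levels of 5.32 and 5.36 in Dlx5-transfected and 5.61 and 5.36 in empty-vector cells, and none of the 7 neuroblast markers was above it. Of the 12 periotic mesenchyme markers 9 were above it, with mean levels over the list of 7.47 and 7.44 in Dlx5-transfected and 7.16 and 7.36 in empty-vector cells. The part of these lists in the differences was not tested.

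**Figure D4:**
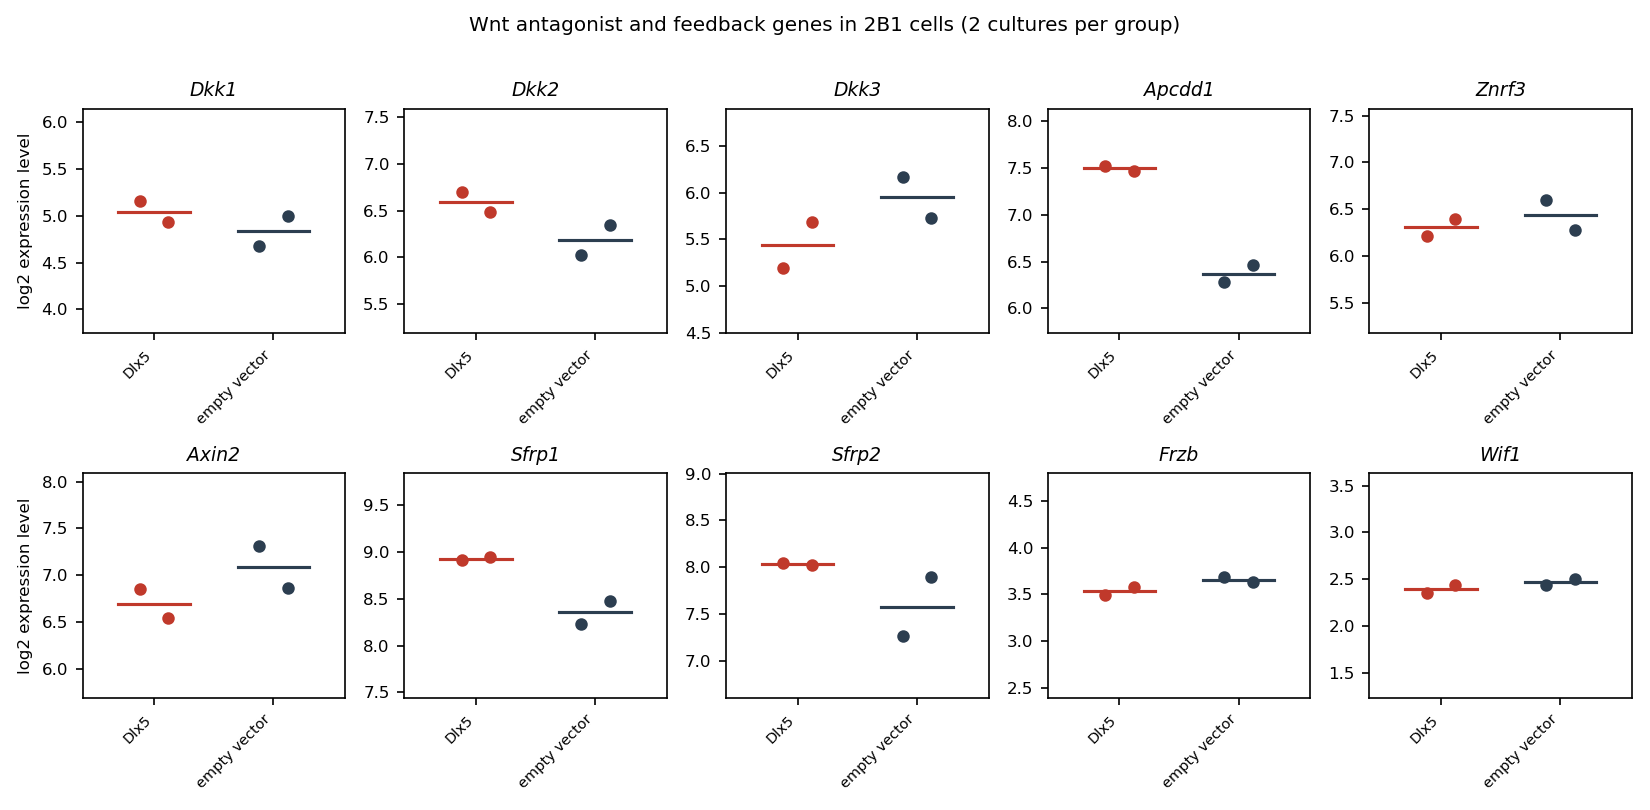
Log2 expression level of the 10 genes (1 probe set per gene, chosen within the 2B1 arrays) in Dlx5-transfected (left) and empty-vector (right) 2B1 cultures. Points are single cultures and lines are means of 2. Apcdd1 lies at 7.52 and 7.47 in Dlx5-transfected and 6.28 and 6.46 in empty-vector cultures.

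The labelled-null and the transfection differences share no arrays and can be set side by side as values, with each fit made on its own arrays and no level set between the sets. Apcdd1 differed by -0.95 in labelled-null vesicles over both stages and by 1.13 in Dlx5-transfected cells, on different probe sets. Dkk2 differed by -1.17 in labelled-null vesicles and 0.41 in Dlx5-transfected cells. Dkk1 differed by -2.15 in labelled-null vesicles and 0.21 in Dlx5-transfected cells, also on different probe sets. Znrf3 differed by -0.64 in labelled-null vesicles and -0.14 in Dlx5-transfected cells. In the same order, Sfrp1 differed by 0.31 and 0.58 and Dkk3 by -0.50 and -0.51, both on different probe sets. Sfrp2 differed by 0.18 and 0.46, and Axin2 by 0.11 and -0.39. On these probe sets Znrf3, Sfrp1, Dkk3 and Sfrp2 thus had the same sign in both, and Apcdd1, Dkk2, Dkk1 and Axin2 opposite signs. Some signs depended on the probe set. For Dkk3, 1417312_at differed by -0.50 and 0.26, and 1448669_at by -0.12 and -0.51. The second Znrf3 set, 1437646_at, had opposite signs (0.03 and -0.38), and 1418383_at of Apcdd1 the same sign (-0.65 and -0.06).

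Other genes of the pathway were read from 3 lists: other antagonists (14 tested of 19), other feedback and response genes (14 of 19) and receptors with the intracellular core (17 of 20). None was called between labelled-null and wild-type vesicles over both stages. Of the 14 other antagonists, 7 had higher and 7 lower values and the median was 0.00. Of the 14 feedback and response genes, 8 were higher and 6 lower with a median of 0.04, and of the 17 receptors and core genes 4 were higher and 13 lower with a median of -0.11, beside -0.01 for all genes. Bambi, a pseudoreceptor that dampens BMP and TGF-beta signalling and is induced by Wnt, differed by -1.41 (SE 0.28, limma adjusted p = 0.27). Rspo3, a secreted protein that counters Znrf3 through Lgr receptors, differed by -0.78 (adjusted p = 0.886), and Lgr5 by -0.63. Going the other way, Shisa2, of the other antagonists, was higher by 0.66 (limma adjusted p = 0.999) and Apc by 0.52 (adjusted p = 0.704). Apc, a core component of the destruction complex, was the single call of these lists in any comparison, lower at E10.5 than at E10 in wild-type vesicles (-1.13, SE 0.18, adjusted p = 0.0383). In 2B1 cells 0 of 14, 0 of 12 and 0 of 15 tested genes of these lists were called.

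The genes whose values ran most like Dkk1 over the 8 vesicle arrays were Cpne8 (Pearson r = 0.97), Mid1ip1 (0.97), Gas1 (0.95), Vwc2 (0.94) and Zc3h13 (0.94). For Dkk2 they were Ing3 (0.98), Pard6b (0.97), Tsen15 (0.96), Sp8 (0.96) and B4galt6 (0.96). The arrays share their pools and preparation, and these coefficients are a description of 8 arrays chosen as the highest of all genes tested.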

How the data were processed

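The deposited values are log2 expression levels of 45101 probe sets on 12 Affymetrix arrays, made with RMA in Affymetrix Expression Console, per the submitters' processing notes. No scanner files were used here, and how far a probe set lies above background is therefore unknown. RMA compresses differences of dim probe sets. Array means were 6.10 to 6.11 for vesicles and 5.76 to 5.82 for 2B1, so the sets were treated as normalized separately. The SD over probe sets was 2.32 in wild-type and 2.33 in labelled-null replicate 1 of E10, and 2.38 in labelled-null replicate 2 of E10.5. On the other vesicle arrays it was 2.45 to 2.47. In 2B1 cells it was 2.19 in empty-vector replicate 1 and 2.29 to 2.31 on the other arrays. The part of these SDs in the results was not tested beyond the alternatives named below. Groups came from the sample titles. The p-values rest on the spread within groups of 2 samples, pooled over the groups of a fit and moderated by limma over all genes. In the fit over both stages, the spread also holds any change of the genotype difference with stage.

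Probe sets listed with 1 gene (34958) were used, those with several (932) or none (9211) were not, and symbols came from a RefSeq table of GRCm38.p6. The brightest probe set stood for a gene. After dropping the dimmest 25%, 13645 genes (vesicles) and 13647 (2B1) were tested. The tool was limma 3.58.1, run in R 4.3.3 with lmFit, eBayes and Benjamini-Hochberg adjustment over all genes at a threshold of 0.05, with stage as covariate over both stages (5 residual degrees of freedom), on 4 group means (4) and on 2B1 arrays alone (2). All tests are two-sided, and the script was tested on simulated data. Named were all 10 genes, genes of fixed Wnt and marker lists, and the 5 genes most like Dkk1 and Dkk2. The members and lists were chosen with earlier results of these data known. Same-numbered arrays did not deviate together in every pair (correlations 0.025 at E10.5, 0.655 at E10 and -0.105 in 2B1), so the numbers were not used as pairs. Alternatives were other filters, the mean of all probe sets, single probe sets, repeated quantile normalization, a replicate block, left-out arrays and the Eif2s3y level as covariate.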

Additional observations from a re-analysis of the deposited data

How the results depend on the processing

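Dkk1, Dkk2, Apcdd1 and Znrf3 kept their lower values in labelled-null vesicles over both stages under the alternatives in which they were tested. With single probe sets, this holds for the set that stood for each gene. The second Znrf3 set, 1437646_at, was not lower when tested singly (0.03). The number of genes called, and of members among them, moved more. Over both stages (3 genes, 1 member) leaving out the lowest 50% of genes gave 0 and 0 (Dkk1 was then itself left out, and the smallest adjusted p of the other genes was 0.0609), single probe sets gave 2 member sets, repeated quantile normalization gave 6 genes, and the Eif2s3y covariate gave 0 and 0. At E10.5 (1 and 1) the lowest 50% left out and the mean of all probe sets each gave 0 and 0. At E10 (0 and 0) quantile normalization gave 2 genes and 1 member (Dkk1). For the wild-type stage difference (296 and 2) members fell to 0 with no filter, with the mean of probe sets and with the Eif2s3y covariate (3 genes), and quantile normalization gave 999 genes. For the labelled-null stage difference (3 and 0) the counts of genes were 1 with the lowest 50% left out, 0 with the mean of probe sets, 20 single probe sets, 92 with quantile normalization and 10 with the Eif2s3y covariate. Without both replicate 1 arrays of E10, genes and members called were 20 and 2 over both stages, 37 and 2 at E10.5, 18 and 1 at E10, 3 and 0 for the interaction, 1689 and 5 for the wild-type stage difference, and 289 and 1 (Sfrp1) for the labelled-null one. The cause of these shifts was not tested.

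With the replicate block, 18 genes and 3 members (Apcdd1, Dkk1, Dkk2) were called over both stages, 11 genes at E10.5, 115 genes and 0 members for the wild-type and 0 genes for the labelled-null stage difference, and 258 genes and 1 member (Apcdd1) in 2B1 cells. In 2B1 a crossed pairing, chosen after seeing the data, gave 20 genes and 1 member (Apcdd1). The shared numbers are not known to mark a pairing.

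Leaving out 1 array at a time gave 0 to 10 genes and 0 to 1 members over both stages, 0 to 4 genes and 0 to 1 members at E10.5, 0 at E10 and for the interaction, 0 to 873 genes and 0 to 4 members for the wild-type stage difference, 0 to 30 genes and 0 members for the labelled-null one, and 0 to 11 genes and 0 members in 2B1 cells.

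No called difference of a member changed sign. The largest uncalled difference that did was that of Frzb between wild-type stages, 0.71 without the Eif2s3y covariate. With the Eif2s3y covariate Frzb was 0.20 over both stages, 0.43 at E10.5 and 0.04 at E10, Axin2 was 0.13 at E10.5, Dkk3 0.016 at E10, Dkk2 0.12 for the interaction, and Axin2 -0.044 and Frzb -0.095 for the wild-type stage difference. With the mean of probe sets Axin2 was 0.075 at E10.5, -0.015 at E10, 0.09 for the interaction and 0.13 for the labelled-null stage difference. With quantile normalization Axin2 was 0.065 at E10.5, Dkk2 0.01 for the interaction, and Dkk1 -0.039 and Sfrp2 -0.038 for the wild-type stage difference. Without both replicate 1 arrays of E10, Dkk3 was 0.28 at E10. Leaving out 1 array moved Axin2 between -0.01 and 0.20 and Frzb between -0.42 and 0.012 over both stages, Axin2 between -0.19 and 0.13 and Sfrp2 between -0.39 and 0.12 at E10.5, and Dkk3 between -1.18 and 0.68 and Frzb between -0.81 and 0.27 at E10. For the interaction the ranges were -0.32 to 0.25 for Dkk2, -1.42 to 0.44 for Dkk3, -0.035 to 0.26 for Apcdd1, -0.77 to 0.005 for Sfrp1 and -0.43 to 0.65 for Frzb. For stage they were -0.04 to 0.15 for Dkk1 and -0.25 to 0.27 for Sfrp2 in wild type and -0.34 to 0.13 for Axin2 in labelled null, and in 2B1 cells -0.30 to 0.025 for Znrf3. With 2 arrays per group, precision is limited by their number.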
